A study of Mus musculus with 15 samples.

Results

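Splicing factor and hnRNP genes were followed in hearts of mice with a knockout of MAT1 aimed at heart muscle cells, and in hearts of their control littermates. The members were all genes read by a probe set with a single current symbol that starts with Srsf, Snrp, Hnrnp, Sf3a, Sf3b, U2af or Prpf, with the probe set of highest mean intensity standing for a gene that had several. This gave 52 of the 8251 genes on the array: 9 Srsf, 8 Snrp, 16 Hnrnp, 3 Sf3a, 5 Sf3b, 3 U2af and 8 Prpf genes. Of these, 44 were bright enough to be tested, and Hnrnpa1, Hnrnpc, Prpf38b, Prpf4b, Sf3a3, Snrpa1, Srsf1 and Srsf10 were not, since they lay among the dimmest 40% of genes. Snrpd1, Snrpd2, Snrpa and Hnrnpa3 were read only by probe sets that carry several symbols, and Snrpn and Sf3b4 by no single-symbol probe set here, so these genes are not analysed here.

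The knockout hearts (CKO) came from mice with MAT1 floxed on both alleles (MAT1F/F) and a Cre recombinase transgene driven by the α-myosin heavy chain promoter (αMHC-Cre+/0), which is active in cardiomyocytes only. The control hearts came from littermates with the same Cre transgene and 1 floxed and 1 wild-type allele (αMHC-Cre+/0; MAT1F/+), so both groups carry Cre and at least 1 floxed allele, and the other cells of the heart keep MAT1. RNA of the heart was hybridised to 1 array per sample, with 3 control and 4 knockout samples at 2 weeks of age and 3 control and 5 knockout samples at 4 weeks. The labels do not say that samples of a group came from separate mice, so p-values measure only the spread between these samples, which may be technical.

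MAT1 helps to assemble the kinase of the general transcription factor TFIIH, which phosphorylates the tail of RNA polymerase II, the platform from which splicing factors are passed to the growing transcript. Introns are marked by the U1 small nuclear ribonucleoprotein (snRNP) at the 5′ splice site, by U2AF at the 3′ splice site and by the U2 snRNP with its SF3a and SF3b complexes at the branch point, before the tri-snRNP and the Prp19 complex form the active spliceosome. SR proteins (Srsf genes) and hnRNPs bind exons and introns and promote or repress the use of nearby sites, and in the heart they take part in the switch from fetal to adult isoforms of contractile genes.

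The stretches upstream of 5 members are printed because the results turn on these genes and each has a single annotated start. Each holds the 250 bases before the start, 5′ to 3′ on the strand of the gene, from RefSeq annotation of GRCm38.p6. Capitals mark exact matches on either strand. The GC box was searched as GGGCGG. The CCAAT box was searched by the letters of its name. The letters TATAAA stood for the TATA box. An ETS site was searched as CCGGAAG, and NRF1 by its palindromic consensus.
Snrpa1 (chr7:66060086-66060335, plus strand): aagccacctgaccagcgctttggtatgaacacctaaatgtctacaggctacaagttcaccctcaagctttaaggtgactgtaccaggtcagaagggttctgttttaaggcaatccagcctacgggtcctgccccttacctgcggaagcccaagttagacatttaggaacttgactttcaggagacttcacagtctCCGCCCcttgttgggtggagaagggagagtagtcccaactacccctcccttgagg
Sf3b1 (chr1:55027479-55027728, minus strand): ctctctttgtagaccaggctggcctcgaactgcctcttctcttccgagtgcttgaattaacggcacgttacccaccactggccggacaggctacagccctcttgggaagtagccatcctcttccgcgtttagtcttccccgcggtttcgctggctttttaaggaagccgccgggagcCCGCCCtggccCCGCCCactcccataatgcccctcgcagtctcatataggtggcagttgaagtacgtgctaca
Sf3b6 (chr12:4817358-4817607, plus strand): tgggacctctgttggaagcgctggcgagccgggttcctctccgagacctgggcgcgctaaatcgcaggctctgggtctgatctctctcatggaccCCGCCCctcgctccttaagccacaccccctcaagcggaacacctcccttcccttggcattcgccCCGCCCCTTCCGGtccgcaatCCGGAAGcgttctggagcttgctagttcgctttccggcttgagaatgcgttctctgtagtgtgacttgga
Hnrnph3 (chr10:63023850-63024099, minus strand): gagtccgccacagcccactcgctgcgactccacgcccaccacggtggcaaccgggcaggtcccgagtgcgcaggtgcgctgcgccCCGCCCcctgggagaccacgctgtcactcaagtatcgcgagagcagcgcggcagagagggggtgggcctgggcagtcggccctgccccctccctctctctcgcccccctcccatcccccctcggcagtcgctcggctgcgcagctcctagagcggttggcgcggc
Prpf38a (chr4:108579337-108579586, minus strand): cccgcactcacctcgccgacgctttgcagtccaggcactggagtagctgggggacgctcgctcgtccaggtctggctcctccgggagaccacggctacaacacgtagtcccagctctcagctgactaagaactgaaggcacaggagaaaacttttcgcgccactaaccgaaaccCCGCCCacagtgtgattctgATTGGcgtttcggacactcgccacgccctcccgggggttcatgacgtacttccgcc
The Snrpa1 stretch was 51.6% G and C and held 1 GC box, whose first base lay 55 bases before the start. In Sf3b1 the stretch was 58.4% G and C with 2 GC boxes. Sf3b6 had 61.6% G and C with 2 GC boxes and 2 ETS matches, one of which adjoins a GC box without overlapping it. Hnrnph3 reached 73.6% G and C with 1 GC box, and Prpf38a had 61.2% with 1 GC box and 1 CCAAT box. RefSeq entries matched 46 of the 52 members with 58 annotated starts. A GC box was present in 67.2% of these 58 stretches and in 32.7% of all 32851 stretches of that length, an ETS match in 31.0% and 6.91%, a CCAAT box in 48.3% and 33.8%, a TATA box in 6.9% and 12.4%, and an NRF1 match in 1.72% and 0.782%. The median G and C content was 60% for the 58 stretches and 52.4% for all. Genes that rose and genes that fell both carried GC boxes, and a match is only a run of letters.

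Array medians ran from 174 to 217 intensity units. The arrays fell into 2 sets that the labels do not name and that were found by clustering the values: arrays of a set correlated at 0.937 or more with each other and at 0.924 or less with the other set. Of each age, set 1 has 1 control and 2 knockout arrays, and the other 9 arrays are set 2. Of the members, 35 of 44 (79.5%) differed between the sets at an adjusted p under 0.05, as did 74.6% of all 4950 genes tested. Each comparison was therefore fitted with limma first without a block and then with the array set as one. A gene with an adjusted p under 0.05 is called. Mnat1, which encodes MAT1, was measured by 2 dim probe sets whose groups overlapped (at 4 weeks 86.0 to 244 in control and 141 to 314 in knockout hearts for the brighter one), so they do not check the labels. Sex inferred from the values was uneven at 4 weeks, with 1 of 3 control and 4 of 5 knockout arrays female. In RNA of the heart, fewer cells of a type and less RNA per cell cannot be told apart.

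At 4 weeks members moved in both directions. With the array set as a block, 4 of 5 SF3b genes, 3 of 7 Snrp genes, Prpf8 and the hnRNP gene Hnrnpll were called higher in knockout hearts. Sf3a1, U2af1l4, Prpf19, Prpf38a and 4 of 14 hnRNP genes were called lower, and none of 7 SR protein genes was called. Without the block, 3 of 44 members (6.82%) were called, against a background of 11.2% of all genes, and all of these fell (background 4.61% lower): Prpf19, Hnrnph3 and Prpf38a. With the block, 17 of 44 (38.6%) were called, against a background of 35.5%. Of these 17, 9 rose (background 23.3%) and 8 fell (background 12.2%). The share of members called was near the background in the blocked fit and below it in the unblocked one. The median log2 difference was 0.01 without and 0.02 with the block, against 0.09 and 0.08 over all genes tested. Quantile normalization with the block gave 18 calls, 8 higher and 10 lower, against a background of 35.1%, and moved the split over all genes from 23.3% higher and 12.2% lower to 17.8% and 17.3%.

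**Figure D1:**
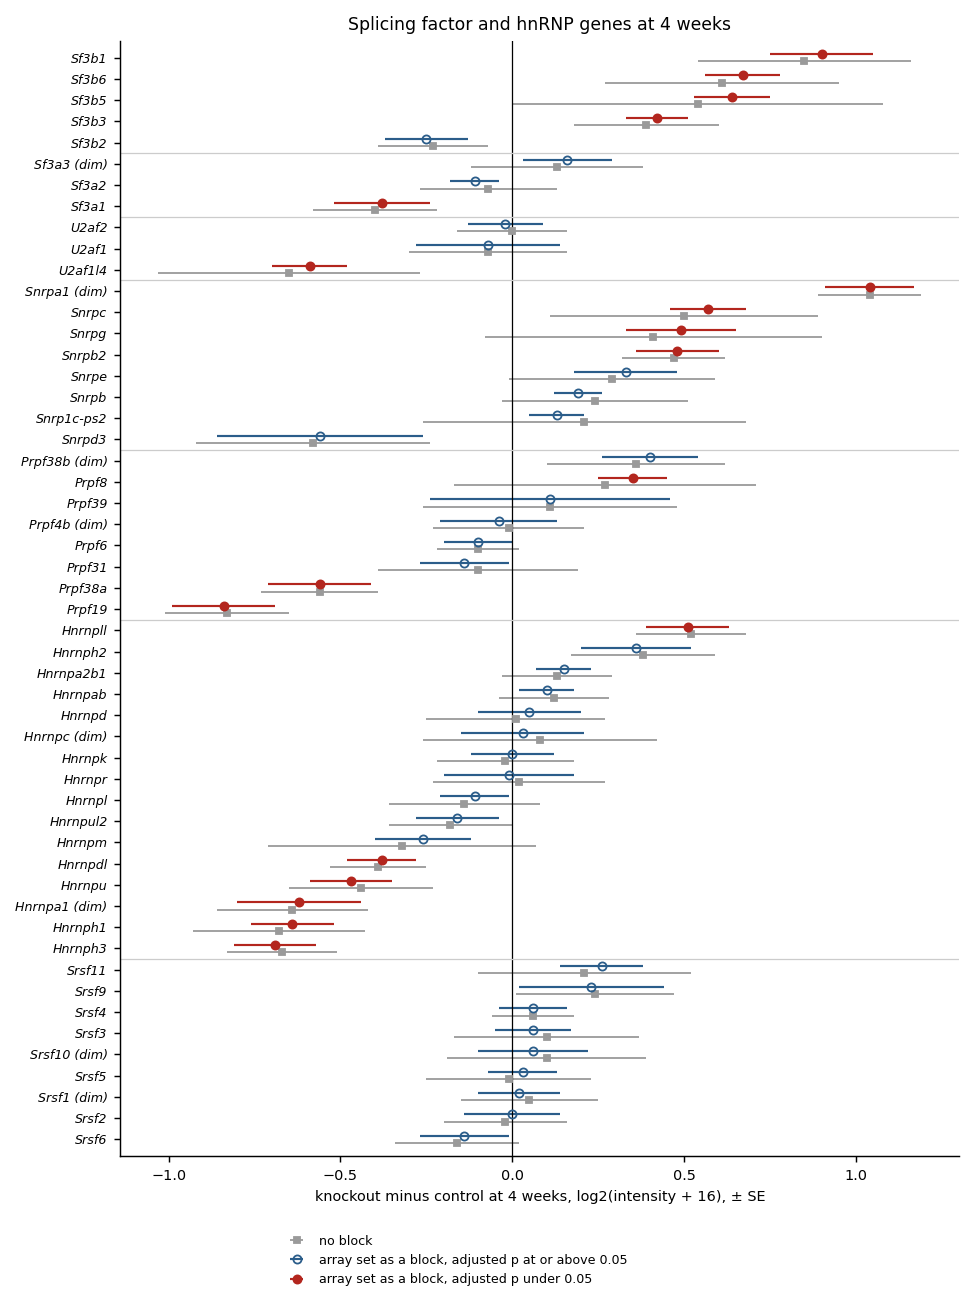
Knockout minus control at 4 weeks for all 52 genes on the log2(intensity + 16) scale, grouped by family, with bars of 1 standard error: grey squares without a block, circles with the array set as a block, filled red where the adjusted p is under 0.05. The 4 called Sf3b genes lie between 0.42 and 0.90, the 7 tested Srsf genes between -0.14 and 0.26; genes marked dim take their values from the fit to all 8251 genes.

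Of the 5 SF3b genes, 4 rose with the block and Sf3b2 did not pass the test (-0.25 ± 0.12, limma adjusted p = 0.122). Sf3b1, the largest subunit, which clamps the helix of U2 snRNA and branch point, had the largest difference. At 4 weeks its intensity was 480.1 on the set 1 control array and 1081 and 1105 on the set 2 control arrays. The knockout arrays read 1097 and 929 in set 1 and 1819, 1892 and 2248 in set 2. Within each set every knockout array lay above every control array, while over both sets the groups overlapped. The log2 difference was 0.90 ± 0.15 (SE; 1.86-fold, limma adjusted p = 0.000239) with the block and 0.85 ± 0.31 (adjusted p = 0.1) without it. The set 1 control array, replicate 1, is the lowest of all 15. Without it the unblocked difference was 0.46 (limma adjusted p = 0.36) and the blocked one 0.70 (adjusted p = 0.00316), the lowest of the 15 values with an array left out. A second, dimmer Sf3b1 probe set gave 0.87.

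Sf3b6, the subunit that contacts the branch point adenosine, and Sf3b5, a small subunit of the same core, followed the same pattern. Sf3b6 read 387 on the set 1 control array against 618 and 619 on the knockout arrays of that set, and 605 and 755 against 1213, 1022 and 1038 in set 2. Its blocked log2 difference was 0.67 ± 0.11 (limma adjusted p = 0.000148). Neither set held an overlap between the groups. Sf3b5 read 284 in the set 1 control and 426 and 418 in the set 1 knockout hearts, and 636 and 809.7 against 1279, 1125 and 1100.4 in set 2, a blocked difference of 0.64 ± 0.11 (limma adjusted p = 0.000234). Sf3b3, a scaffold subunit, went from 265 to 393 and 399.7 in set 1 and from 393 and 423 to 499, 506 and 568 in set 2 (0.42 ± 0.09, limma adjusted p = 0.00216). For these 3 genes the adjusted p without the block was 0.321, 0.677 and 0.311. Phf5a, which sits in the same complex but is named outside the families, rose in both fits (0.60 ± 0.17 without and 0.59 ± 0.15 with the block, limma adjusted p = 0.0328 and 0.00621). The unblocked call was lost without any of 6 arrays (adjusted p up to 0.211) and under quantile normalization (0.0684), and the blocked one without control replicate 2 of 4 weeks (adjusted p = 0.0538).

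The SF3a genes did not share this rise. Sf3a1 was called lower with the block (-0.38 ± 0.14, limma adjusted p = 0.0472), but its set 1 difference was -0.02 against -0.58 in set 2, and the call was lost when any of 12 of the 15 arrays was left out and with inferred sex as a second block (adjusted p = 0.0553). Sf3a2 did not pass the test (-0.11 ± 0.07), nor did the dim Sf3a3 (0.16 ± 0.13).

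The U2 snRNP also holds the A′ and B″ proteins, encoded by Snrpa1 and Snrpb2, which bind U2 snRNA as a pair. Snrpa1 had the largest difference of all 52 genes, although its mean of 177 fell just short of the dimmest tested gene (184). Control arrays of 4 weeks gave 135, 106 and 109.5, knockout arrays 273, 283, 222, 287 and 225. The groups did not overlap, with the lowest knockout array at 222 and the highest control array at 135. In the fit to all 8251 genes the difference was 1.04 ± 0.15 without the block (2.06-fold, limma adjusted p = 0.000519) and 1.04 ± 0.13 with it (adjusted p = 2.2e-05), and the unblocked value ran from 0.99 to 1.14 with 1 array left out at a time. Snrpb2 gave 330.0, 261 and 288 on control arrays and 364, 361, 445, 473 and 414 on knockout arrays, with no overlap. Its difference was 0.47 ± 0.15 (limma adjusted p = 0.0544) without and 0.48 ± 0.12 (adjusted p = 0.00443) with the block. A second, dim Snrpb2 probe set gave -0.12 ± 0.15, and the mean of both was not called (0.18 ± 0.11, adjusted p = 0.241 with the block).

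**Figure D2:**
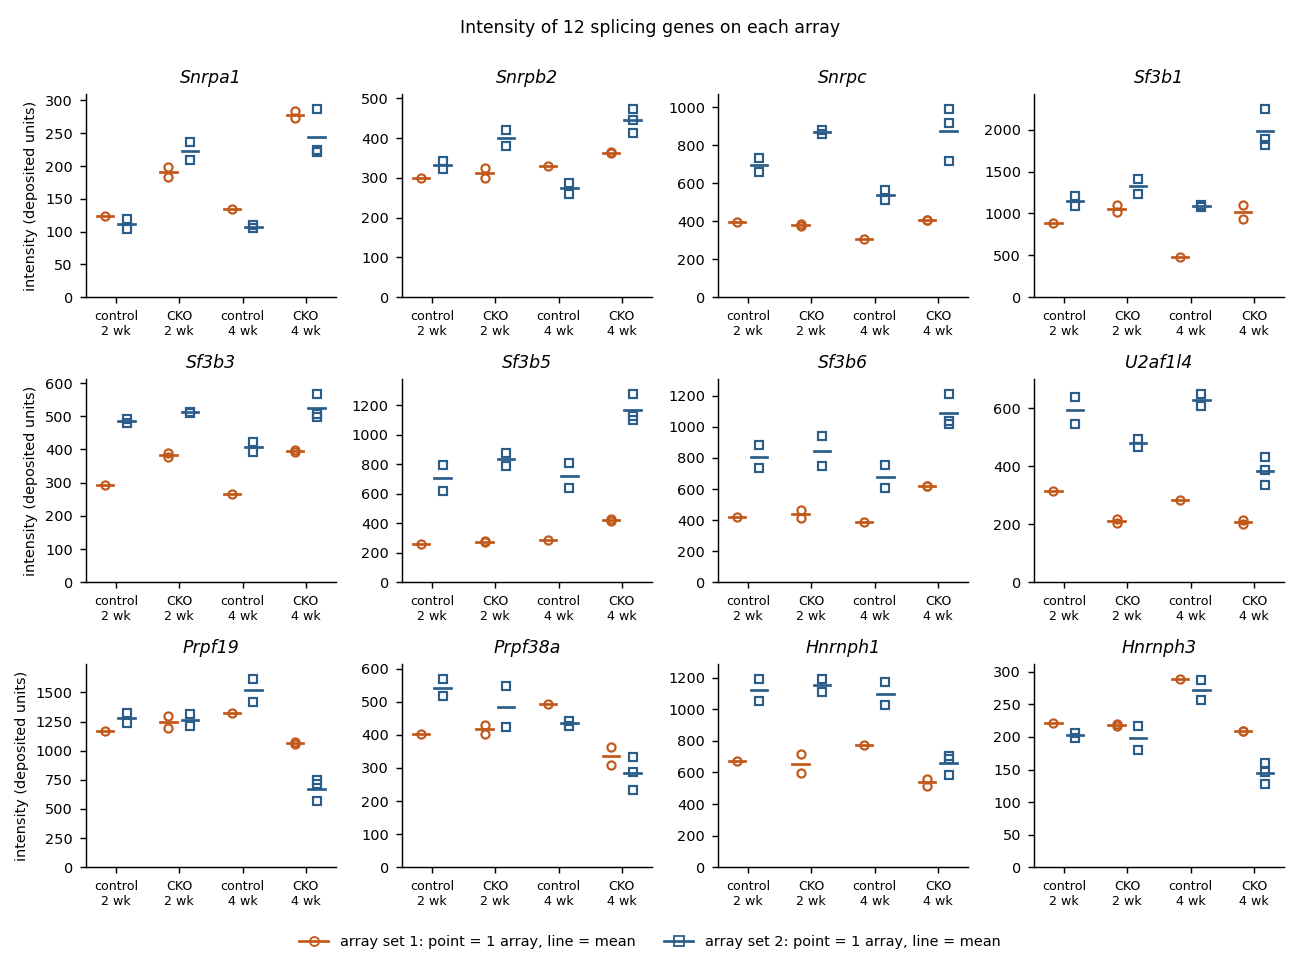
Intensity of 12 genes on each of the 15 arrays, on a linear axis from 0, by group; circles are array set 1, squares array set 2, and short lines the mean of a set in a group. Snrpa1 sits higher in knockout hearts of both ages in both sets, Sf3b1, Sf3b3, Sf3b5 and Sf3b6 are higher in the 4-week knockout arrays within each set, and Prpf19, Prpf38a, Hnrnph1 and Hnrnph3 are lower there.

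Snrpc encodes the U1 protein that steadies pairing with the 5′ splice site. In set 1 the control array gave 309 and the knockout arrays 408 and 404, in set 2 the controls gave 563 and 513 and the knockouts 718, 917 and 991, a blocked difference of 0.57 ± 0.11 (limma adjusted p = 0.00108; 0.527 without the block). Snrp1c-ps2, whose symbol marks it as a pseudogene, differed by 0.13 ± 0.08 and did not pass the test, and whether its probes and those of Snrpc read the same transcripts was not tested.

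Among the Sm proteins, which form the ring around the snRNAs, 1 of 4 was called. Snrpg rose with the block (0.49 ± 0.16, limma adjusted p = 0.0219), from 147 to 235 and 236 in set 1 and from 315 and 404 to 518, 474 and 428 in set 2. That call was lost without control replicate 2, knockout replicate 1 or knockout replicate 2 of 4 weeks (adjusted p up to 0.116), and with inferred sex as a second block (0.0678). Snrpb (0.19 ± 0.07, adjusted p = 0.0526), Snrpe (0.33 ± 0.15, adjusted p = 0.108) and Snrpd3 (-0.56 ± 0.30, adjusted p = 0.163) did not pass limma's test. Snrpd3 was unlike in the 2 sets, at 0.15 in set 1 and -0.95 in set 2.

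At the 3′ splice site, U2af1l4, a relative of the small U2AF subunit, fell with the block by 0.59 ± 0.11 on the log2 scale (limma adjusted p = 0.000549; 0.356 without it). It read 282 in control against 214 and 202 in knockout hearts of set 1, and 607 and 650.0 against 337, 432 and 386 in set 2. Each set separated the groups, with lower knockout values. U2af1 (-0.07 ± 0.21) and U2af2 (-0.02 ± 0.11), the 2 standard subunits of U2AF, did not pass the test. U2af1 was unlike in the 2 sets, with 224 in control against 318 and 298 in knockout hearts of set 1. In set 2 it read 260 and 323 against 324, 190 and 172.

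Of the 6 tested Prpf genes, 2 fell in both fits and 1 rose with the block. Prpf19, a ubiquitin ligase and the scaffold of the complex named for it, read 1324, 1420.0 and 1618 on control arrays and 1076, 1061, 569, 745 and 713 on knockout arrays. The groups did not overlap, and the lowest values were the 3 knockout arrays of set 2. The log2 difference was -0.83 ± 0.18 (limma adjusted p = 0.00885) without and -0.84 ± 0.15 (adjusted p = 0.000537) with the block, but -0.30 within set 1 and -1.16 within set 2. A second Prpf19 probe set gave -0.60 ± 0.12 with the block. Leaving out control replicate 3 of 4 weeks took the unblocked adjusted p of Prpf19 to 0.0534 and that of Hnrnph3 to 0.0582.

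Prpf38a, which joins the spliceosome as it is activated, read 494, 442 and 428 on control arrays and 309, 362, 288, 334 and 232 on knockout arrays, with no overlap. Its difference was -0.56 ± 0.17 (limma adjusted p = 0.0407) without and -0.56 ± 0.15 (adjusted p = 0.00758) with the block, and close in the 2 sets (-0.54 and -0.60). The unblocked call was lost without any of 9 arrays (adjusted p up to 0.117), and the blocked call without control replicate 1 of 4 weeks (adjusted p = 0.0512). Prpf8, the central scaffold around the catalytic RNA, rose with the block (0.35 ± 0.10, limma adjusted p = 0.0107), although not without it (0.27 ± 0.44). It read 488 against 646 and 566 in set 1 and 1029 and 1125 against 1449, 1496 and 1279.9 in set 2, and the blocked call was lost without control replicate 2 of 4 weeks (adjusted p = 0.0538) and under quantile normalization. Prpf31 (-0.14 ± 0.13), Prpf6 (-0.10 ± 0.10), Prpf39 (0.11 ± 0.35) and the dim kinase gene Prpf4b (-0.04 ± 0.17) did not pass the test.

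The 14 tested hnRNP genes held 4 that fell and 1 that rose with the block. Hnrnph3 and Hnrnph1 encode related proteins that bind runs of G. Hnrnph3 read 289, 257 and 287 on control arrays and 209, 209.8, 161, 128 and 146 on knockout arrays (-0.67 ± 0.16 without and -0.69 ± 0.12 with the block, limma adjusted p = 0.0138 and 0.000374). Hnrnph1 read 775, 1026 and 1173 on control arrays and 561, 516, 586, 684 and 705 on knockout arrays (-0.68 ± 0.25, limma adjusted p = 0.102 without, -0.64 ± 0.12, adjusted p = 0.000645 with the block). For both genes the groups did not overlap. Hnrnph2, the third member of that group measured here, had a positive difference that did not pass the test (0.36 ± 0.16, limma adjusted p = 0.0928).

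Hnrnpu, a nuclear scaffold protein, fell with the block (-0.47 ± 0.12, limma adjusted p = 0.00523) on its brighter probe set, while its dimmer one gave 0.25 ± 0.15 and the mean of both was not called (-0.11 ± 0.11, adjusted p = 0.495). Its values were 1247 against 926 and 727 in set 1, and 807 and 891 against 739, 709 and 496 in set 2. Hnrnpdl, a relative of Hnrnpd, fell by 0.38 ± 0.10 (limma adjusted p = 0.00627), from 1051, 994 and 1182 to 822, 724, 880.0, 839 and 823. Those 2 groups did not overlap, whereas the unblocked adjusted p was 0.0929. The dimmer Hnrnpdl probe sets gave -0.29 ± 0.17 and -0.12 ± 0.15, and the mean of all 3 was not called (-0.26 ± 0.10, limma adjusted p = 0.056 with the block). Hnrnpll, best known for splicing of Ptprc in lymphocytes, rose (0.51 ± 0.12, limma adjusted p = 0.0047; 0.055 without the block), with 219.6 against 283 and 272 in set 1 and 154 and 167 against 261, 296 and 212 in set 2.

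Of the hnRNP genes, 9 did not pass the test with the block. The blocked differences were 0.15 ± 0.08 for Hnrnpa2b1, 0.05 ± 0.15 for Hnrnpd, 0.00 ± 0.12 for Hnrnpk and -0.11 ± 0.10 for Hnrnpl. A second, dimmer Hnrnpa2b1 probe set gave -0.47 ± 0.19, and the mean of both was not called (-0.16 ± 0.12, limma adjusted p = 0.342 with the block). The dim Hnrnpc gave 0.03 ± 0.18. Dim Hnrnpa1 read 139.7, 158 and 177 on control arrays and 100.5, 86.5, 74.4, 118 and 103 on knockout arrays (-0.62 ± 0.18, limma adjusted p = 0.0175 with the block and 0.096 without, in the fit to all genes). The blocked call was lost without control replicate 1 or 3 of 4 weeks (adjusted p up to 0.0679), and probe sets shared between Hnrnpa1 and copies of it were not used.

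None of the 7 tested SR protein genes was called in either fit, and their blocked log2 differences ran from -0.14 to 0.26. Srsf11 had the largest (0.26 ± 0.12, limma adjusted p = 0.0959). Srsf2 averaged 1950 ± 174 (SD, n = 3) in control and 1940 ± 322 (n = 5) in knockout hearts, a blocked difference of 0.00 ± 0.14. Srsf3 (0.06 ± 0.11), Srsf5 (0.03 ± 0.10), Srsf6 (-0.14 ± 0.13) and the dim Srsf1 (0.02 ± 0.12) did not pass the test either. Srsf9 was unlike in the 2 sets. It read 259 in control against 380 and 343 in knockout hearts of set 1, and 216 and 237 against 367, 180 and 204 in set 2. A difference that misses the test does not show that these genes had the same level in both groups.

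Over all 44 members, 6 (13.6%) had groups at 4 weeks that did not overlap, Snrpb2 above and Prpf19, Prpf38a, Hnrnph1, Hnrnph3 and Hnrnpdl below control, against a background of 17.4% (10.8% above and 6.57% below). Within both array sets and in the same direction, 19 members (43.2%) had groups without overlap, against 40.9% of all genes.

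Other genes of the splicing machinery, from a list of 99 of which 67 were tested, held 2 calls (2.99%) at 4 weeks without the block and 12 (17.9%) with it, 10 higher and 2 lower, against 11.2% and 35.5% of all genes. Besides Phf5a, Pcbp4, a poly(C)-binding protein, was called in both fits (-0.66 ± 0.16 and -0.67 ± 0.12, limma adjusted p = 0.0136 and 0.000302). Cdc5l, a partner of Prpf19, was called with the block only (0.37 ± 0.13, limma adjusted p = 0.0339; 0.29 without it). Rnps1 (0.28 ± 0.11, adjusted p = 0.0573) and Srrm1 (0.25 ± 0.11, adjusted p = 0.0838), both activators of splicing on exons, did not pass limma's test. Bud31, a spliceosome protein named after its values were seen, had the smallest blocked p of the list (0.90 ± 0.10, adjusted p = 4.9e-06) and an unblocked adjusted p of 0.385.

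Markers of other cell types moved at the same age. All 7 tested fibroblast markers rose in both fits, and their summed intensity ran from 10600 to 12000 in control and from 22600 to 29400 in knockout hearts. Of 7 tested cardiomyocyte markers 4 fell, with sums of 59400 to 63600 in control and 48600 to 53400 in knockout hearts. Of 5 tested proliferation markers 4 rose with the block and 1 without it, of 5 smooth muscle markers 4 and 2, and of 6 endothelial markers 2 rose and 1 fell with the block; none of 6 macrophage and 2 lymphocyte markers was called. Of 2 tested erythroid markers Hba-a1 rose with the block (0.44 ± 0.14, limma adjusted p = 0.0205), with list sums of 6000 to 7400 in control and 7500 to 13400 in knockout hearts, and of 2 neuron markers Stmn2 fell with the block (-0.31 ± 0.11, adjusted p = 0.0363). No marker was at the floor of an array on every array. The part of these cell types in the differences of the splicing genes was not tested.

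At 2 weeks no member was called in either fit, against a background of 0.0202% of all genes without and 0.0808% with the block. At an unadjusted p under 0.05 there were 0 members without the block (1.03% of all genes) and 2 with it (5.49%). Snrpa1 came nearest. Control arrays gave 124, 104 and 119.8 and knockout arrays 183, 198, 237 and 209.5, so that the groups did not overlap. The difference was 0.75 ± 0.15 (limma adjusted p = 0.309) without and 0.74 ± 0.13 (adjusted p = 0.0643) with the block, in the fit to all genes. When all probe sets of a gene were averaged, the values of Snrpa1, which has 1 probe set, stayed as they were, but it came among the tested genes, and its limma adjusted p with the block was then 0.0367.

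U2af1l4 had the next smallest blocked p, with 316 against 205 and 216 in set 1 and 639 and 546 against 493 and 465 in set 2 (-0.40 ± 0.11, limma adjusted p = 0.417). Each set again separated the groups, with lower knockout values. At 2 weeks 16.5% of all genes were separated in both sets in the same direction. Those separated with lower knockout values made up 4.4% of all genes. Hnrnpll differed by 0.32 ± 0.13 (limma adjusted p = 0.824), Hnrnpdl by -0.17 ± 0.10 and Prpf6, a tri-snRNP protein, by 0.14 ± 0.10. The blocked differences of Sf3b1 (0.28 ± 0.16), Sf3b3 (0.19 ± 0.10) and Sf3b5 (0.18 ± 0.11) were positive and did not pass the test. Among the other splicing genes none was called in either fit. The smallest p-values without the block belonged to 5 genes whose differences with it were as follows: Srpk3, a muscle kinase of SR proteins (0.43 ± 0.19, limma adjusted p = 0.872), Qk (-0.22 ± 0.13), Luc7l2 (-0.20 ± 0.16), Rnps1 (0.13 ± 0.12) and Ybx1 (0.09 ± 0.10). No marker of the cell types listed above for 4 weeks was called at 2 weeks.

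With the block, the 2-week difference of all 17 called members pointed the way of the 4-week one, which held for 80.6% of all genes called at 4 weeks. The direction was shared by 31 of all 44 members (70.5%) and by 67.2% of all genes. Measured in the direction of the 4-week difference, the median of the 17 was 0.16 at 2 weeks and 0.56 at 4 weeks, against 0.10 and 0.53 for all genes called. The 2 ages share no sample, but both come from the same 2 array sets. Of the 17, Sf3b5 (-0.06), Sf3b6 (-0.09), Prpf8 (-0.16) and Prpf19 (0.01) had unblocked 2-week differences against their 4-week direction. Some blocked 2-week differences were small, such as -0.01 for Prpf19 and -0.03 for Hnrnph1.

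**Figure D3:**
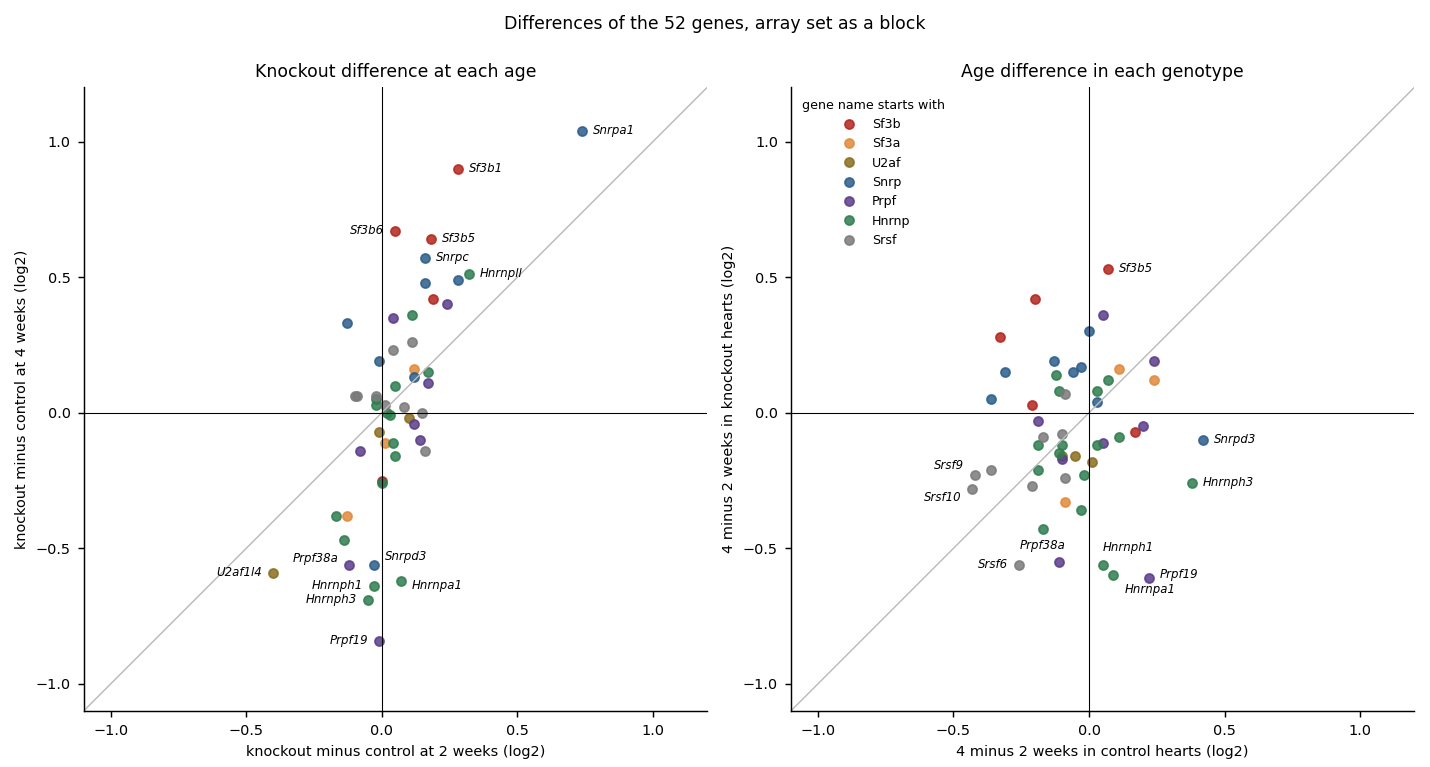
Left: knockout minus control at 2 weeks (x axis) against 4 weeks (y axis) for the 52 genes, log2 scale, array set as a block. Right: 4 weeks minus 2 weeks in control (x axis) against knockout hearts (y axis). Colours give the family and the grey line marks equal values; Snrpa1 stands at 0.74 and 1.04 on the left, while Sf3b1, at 0.28 and 0.90, lies far above the line.

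The test of whether the knockout difference itself differed between the ages called no member without the block (background 1.56%; 2 members and 9.60% of all genes at an unadjusted p under 0.05) and 4 of 44 (9.09%) with it (background 12.5%), 1 positive (7.19%) and 3 negative (5.27%). Sf3b6 was called positive (0.62 ± 0.15, limma adjusted p = 0.016). Its 2-week arrays read 422 against 416 and 464 in set 1 and 881 and 736 against 749 and 941 in set 2, so that the groups overlapped at that age. Prpf19 (-0.83 ± 0.22, adjusted p = 0.024), Hnrnph3 (-0.64 ± 0.18, adjusted p = 0.0252) and Hnrnph1 (-0.61 ± 0.17, adjusted p = 0.0323) were called negative by limma. At 2 weeks Prpf19 read 1169, 1239 and 1325 on control arrays and 1199, 1296, 1312 and 1215 on knockout arrays. These ranges overlap almost wholly.

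Each of these calls was lost when certain single arrays were left out: 2 for Sf3b6 (control replicate 2 of 4 weeks and control replicate 1 of 2 weeks, adjusted p up to 0.0585), 3 for Hnrnph3 (up to 0.0804), 4 for Prpf19 (up to 0.0893) and 7 for Hnrnph1 (up to 0.103). For Hnrnph3 these were control replicates 2 and 3 of 4 weeks and control replicate 3 of 2 weeks, and for Prpf19 the same 3 arrays and control replicate 1 of 2 weeks. For Hnrnph1 they were control replicates 1 and 3 of 4 weeks, control replicates 2 and 3 of 2 weeks and knockout replicates 1, 2 and 4 of 2 weeks. Sf3b5 (0.46 ± 0.15, limma adjusted p = 0.0628) and Sf3b1 (0.62 ± 0.22, adjusted p = 0.0784) did not pass.

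In control hearts no member was called between 2 and 4 weeks in either fit, against a background of 0.727% without and 5.92% with the block. Unadjusted p-values under 0.05 were found for 0 and 4 members, and for 6.63% and 19.0% of all genes. Hnrnph3 read 221, 207 and 199 at 2 weeks and 289, 257 and 287 at 4 weeks, without overlap (0.38 ± 0.14, limma adjusted p = 0.123 with the block). Sf3a2 had the smallest blocked p (0.24 ± 0.08, limma adjusted p = 0.0945). All 7 tested SR protein genes had negative differences, from -0.42 ± 0.23 for Srsf9 upward, with a median of -0.17, and none passed. Some were small, such as -0.09 for Srsf2 and for Srsf4. The dimmer probe sets of Srsf2, Srsf3 and Srsf4 gave -0.01, -0.17 and 0.09. Members outside the SR family were negative too, such as Snrpc (-0.36) and Snrpe (-0.31), beside positive ones such as Hnrnph3 and Sf3a2. No share of negative differences over all genes is given here, so the direction is not shown to be particular to SR protein genes. Srsf6, which favours the inclusion of many alternative exons, gave -0.26 ± 0.14 and the dim Srsf10, an SR protein that represses splicing when dephosphorylated, -0.43 ± 0.18 (limma adjusted p = 0.227).

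In knockout hearts 2 members fell from 2 to 4 weeks without the block, Prpf19 (-0.62 ± 0.17, limma adjusted p = 0.0416) and Prpf38a (-0.55 ± 0.15, adjusted p = 0.0463), against a background of 6.59% (2.81% lower). These unblocked calls were lost without any of 11 and 13 arrays. With the block 9 of 44 (20.5%) were called, against a background of 25.1%, 3 higher (background 14.4%) and 6 lower (10.8%). Sf3b5 (0.53 ± 0.10), Sf3b6 (0.42 ± 0.10) and Prpf8 (0.36 ± 0.09) rose. Prpf19 (-0.61 ± 0.14), Hnrnph1 (-0.56 ± 0.11), Srsf6 (-0.56 ± 0.12), Prpf38a (-0.55 ± 0.14), Hnrnpm (-0.43 ± 0.13) and Hnrnpu (-0.36 ± 0.11) fell. When all probe sets of a gene were averaged, Hnrnpa2b1 (-0.35 ± 0.11) and Sf3b1 (0.37 ± 0.11) were called as well. The dim Hnrnpa1 was called lower with the block in the fit to all genes (-0.60, limma adjusted p = 0.0194, and 0.15 without the block). That call was lost without knockout replicate 1 of 2 weeks (adjusted p = 0.0905).

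Srsf6 was the single SR protein gene called in any of these comparisons, with or without the block. In knockout hearts it read 1029 and 1225 at 2 weeks and 927 and 934 at 4 weeks in set 1, and 1666 and 1484 against 899, 793 and 1017 in set 2, with no overlap (limma adjusted p = 0.00202 with and 0.0701 without the block). Hnrnpm, an hnRNP that acts on alternative exons, read 394 and 396 against 388 and 337 in set 1 and 1070.0 and 893 against 648, 558 and 599.9 in set 2. Its call was lost without knockout replicate 1 or 2 of 2 weeks (limma adjusted p up to 0.0938), and that of Hnrnpu without knockout replicate 2 of either age (up to 0.0712). The knockout arrays of 4 weeks enter both this comparison and the one with control hearts of that age.

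**Figure D4:**
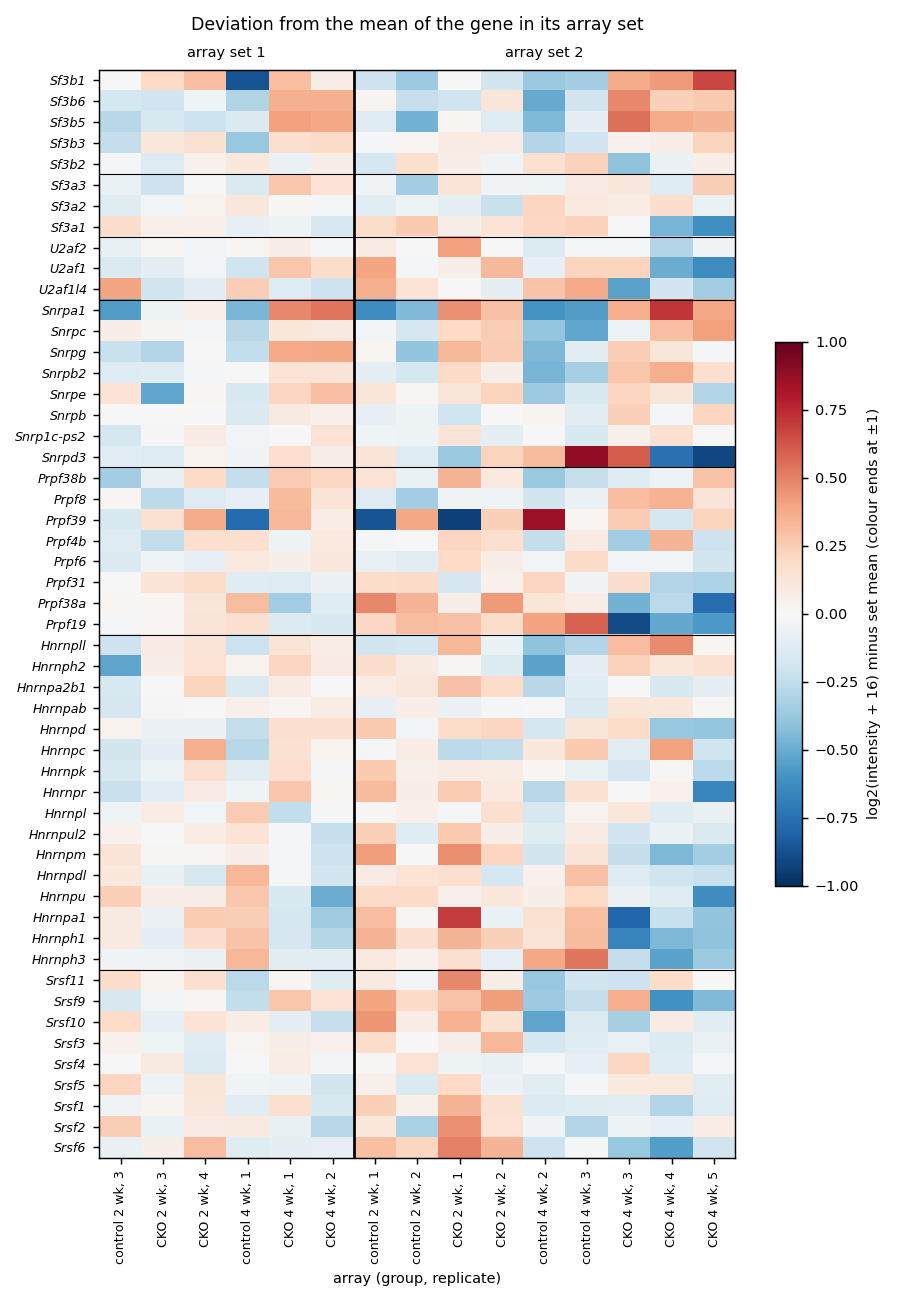
Each of the 52 genes (lines) on each of the 15 arrays (columns, by array set, group and replicate): log2(intensity + 16) minus the mean of the gene in its array set, with the colour scale ending at -1 and 1. Sf3b1, Sf3b5, Sf3b6 and Snrpa1 are above the set mean, and Prpf19, Hnrnph1 and Hnrnph3 below it, in the 4-week knockout arrays of both sets.

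The array set was a larger source of spread than the genotype for most members: its log2 difference was larger in size than the blocked knockout difference at 4 weeks in 27 of 44. This was not counted over all genes, so it does not set the members apart. Sf3b5 (-1.43 in set 1 against set 2), Snrpg (-1.26), Prpf8 (-1.16), Snrpc (-0.98) and U2af1l4 (-0.98) were the lowest in set 1, and the knockout difference of each of these 5 genes was called with the block and not without it. Snrp1c-ps2 was the highest, followed by Snrpb (0.70), Prpf31 (0.68) and Srsf3 (0.64). The median size was 0.39 for the members and 0.44 for all genes tested. What the sets stand for was not tested.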

How the data were processed

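One series table held 1 intensity per probe set and array; the values are linear intensities as deposited by the authors, positive on every array, and no source used here gives their scaling or background step. Of 12422 probe sets, 10833 carried 1 symbol in the platform annotation, 396 several and 1193 none, and 10817 symbols were updated through gene IDs. Without further normalization, log2(intensity + 16) was tested with limma 3.58.1 in R 4.3.3 (trended empirical Bayes) over 15 arrays, with p-values adjusted by Benjamini-Hochberg over the 4950 genes left after dropping the lowest 40% by mean. Differences are on this scale, which understates the change of dim genes; values of dim members come from a fit to all 8251 genes. Sequences are from RefSeq, GRCm38.p6, whose build the probe sets do not state.

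Genes were named if they belonged to a fixed list of well-known members or were called (up to 10 a direction), or had the 5 smallest p-values where fewer were called; companion genes by the 5 smallest p-values. Members and lists were chosen with earlier results of these data known. The array set, found in the values, is an alternative chosen after seeing the data. Replicate numbers were not used to pair the samples in the fits above. Of 19 same-numbered pairs 7 had deviations correlated above 0.1 (range -0.82 to 0.89). These 7 joined arrays of the same set and the other pairs arrays of different sets. The set was not removed first, so this cannot show whether the numbers pair samples. The number of arrays limits the precision.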

Additional observations from a re-analysis of the deposited data

Results flagged for a closer look

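Within a group, 3 of 104 sets of 4 or 5 samples had an array far from the others, where chance gives about 1 in 20. Hnrnpd read 1011.6 in knockout replicate 3 of 4 weeks, against 675.2 to 698.5 in the other arrays of that group. Hnrnph3 read 180.7 in knockout replicate 2 of 2 weeks, against 216.4 to 220.4. Prpf39 read 173.1 in knockout replicate 1 of 2 weeks, against 394.9 to 462.1.

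The knockout difference was called unlike at the 2 ages for 4 genes, by limma's test of the difference itself with the array set in the model: -0.61 for Hnrnph1, -0.64 for Hnrnph3, -0.83 for Prpf19 and 0.62 for Sf3b6 (log2, 4 weeks minus 2 weeks). The background of this fit was 12.5% of all genes. None of the 4 was called without the block (limma adjusted p = 0.176 or more), and each blocked call was lost when certain single arrays were left out.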

How the results depend on the processing

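The 3 members called at 4 weeks became 5 with quantile normalization, 5 with the mean of all probe sets of a gene, 9 with array weights (whose estimation did not fully converge), 17 with the array set as a block, 18 with that block and quantile normalization, 16 with array set and sex inferred from the values, 16 within set 1 (36.4%, against 23.6% of all genes, where the lone control is assumed to vary like the other groups), 13 within set 2 (29.5% against 29.1%) and 0 with a replicate block. At 4 weeks the background was 11.2% unblocked, 11.1% with quantile normalization, 35.5% with the set block and 35.1% with both. In knockout hearts between the ages, 2 calls (background 6.59%) became 0 with median scaling, 1 with no filter on dim genes, 1 with the mean of probe sets and 7 with weights. The set block gave 9 (background 25.1%), 11 with quantile normalization added (26.2%) and 11 with inferred sex added. Within set 2 there were 8 (18.3%), and with a replicate block 0. The difference between ages had 0 calls (background 1.56%), but 4 with weights, 4 with the set block (12.5%) and 4 with it and quantile normalization (13.1%). It had 6 with set and sex and 3 within set 2 (7.25%). For the settings without a background here, and for the counts below with 1 array left out, none was computed. Those counts therefore cannot be set against all genes and say nothing particular to the members. Array weights moved the 2-week median from 0.01 to -0.15, and the mean of probe sets gave 1 blocked call at 2 weeks.

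With 1 array left out, calls at 4 weeks ran from 0 (without control replicate 3 of 4 weeks) to 5 (without knockout replicate 2), those of knockout hearts between ages from 0 to 3, and the blocked difference between ages from 1 to 5. The blocked counts ran from 15 to 18 at 4 weeks and from 7 to 10 in knockout hearts. Calls at 2 weeks and in control hearts stayed at 0. Among the 17 blocked calls at 4 weeks, the 4 lost without some array were Prpf38a, Prpf8, Sf3a1 and Snrpg. The member medians, all close to 0, changed sign in some of these fits: they ran from -0.02 to 0.05 at 4 weeks, -0.10 to 0.09 at 2 weeks, -0.18 to 0.03 in control hearts and -0.07 to 0.03 for the difference between ages, and stayed negative (-0.13 to -0.04) in knockout hearts. The unblocked Prpf8 difference at 4 weeks, not called, reached -0.10. No named difference that was called changed sign. Why the settings differ was not tested.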
